A study of Mus musculus with 151 samples.

Results

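The collagen genes are the mouse genes whose names follow the pattern Col, a number, the letter a and a second number, and each encodes 1 alpha chain of a collagen. All genes with such a name were taken from 7 tables of RNA-seq read counts, which gave 44 of 35976 gene names in each table. By the structures their chains are known to form, 11 were classed as fibrillar, 6 as basement membrane (type IV), 6 as beaded filament (type VI), 9 as FACIT, the collagens that decorate fibrils, 4 as transmembrane, 3 as network, 2 as multiplexin and 1 as anchoring fibril collagen, and Col26a1 and Col28a1 were kept as other. The study asked how conception by IVF affects the ovaries and germ cells of female mouse offspring with age.

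The tables held 143 libraries from F1 females of CF-1 dams and B6/SJL males. Natural females came from mating in a natural oestrous cycle, without embryo transfer, and IVF females came from superovulated dams, fertilization in vitro, culture to the blastocyst and transfer into pseudopregnant CF-1 recipients, so that superovulation, culture and transfer cannot be told apart from fertilization in vitro. There were 29 ovaries: 4 Natural and 6 IVF fetal ovaries at E18.5, 4 Natural and 5 IVF ovaries at 12 weeks, and 5 Natural and 5 IVF ovaries at 39 weeks. Primordial germ cells (PGCs) of E13.5 gonads gave 4 Natural and 5 IVF libraries. Single ovulated oocytes numbered 36 Natural and 40 IVF at the age of 12 weeks, with 9 and 10 at 39 weeks, and the cumulus cells that surround them gave 5 libraries of each group at 12 weeks. Adults had been fostered to CF-1 dams, and females that gave oocytes or cumulus cells had been superovulated. One Natural ovary titled 39 weeks carries 40 weeks in another label. Where the labels do not tie libraries to separate females, p values measure only the spread between libraries.

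Collagen chains fold as trimers into a triple helix that needs a glycine in each triplet of residues. Fibrillar collagens (types I, II, III, V, XI, XXIV and XXVII) have a long helix, uninterrupted except in types XXIV and XXVII. They pack into the fibres of the ovarian stroma, theca and capsule. Type IV chains have a helix with many interruptions and join into the meshwork of basement membranes, which surround follicles and blood vessels; their genes lie head to head in pairs, and their chains assemble as Col4a1 with Col4a2, as Col4a3 with Col4a4 and Col4a5, and as Col4a5 with Col4a6.

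The difference in helix can be read in the coding sequence, and 4 stretches of 54 coding bases are shown because these genes carry the contrasts below. Sequences were read in the coding direction from GRCm38, with every glycine codon in capitals. The Col1a1 stretch is chr11:94945527-94945580 on the plus strand in coding exon 31, that of Col3a1 is chr1:45337259-45337312 on the plus strand in coding exon 30, that of Col4a1 is chr8:11235138-11235191 on the minus strand in coding exon 21, and that of Col4a4 is chr1:82528458-82528511 on the minus strand in coding exon 14.
Col1a1: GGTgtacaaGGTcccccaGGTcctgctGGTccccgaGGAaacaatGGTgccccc
Col3a1: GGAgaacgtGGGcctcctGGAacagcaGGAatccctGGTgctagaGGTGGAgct
Col4a1: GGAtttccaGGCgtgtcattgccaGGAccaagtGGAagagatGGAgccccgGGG
Col4a4: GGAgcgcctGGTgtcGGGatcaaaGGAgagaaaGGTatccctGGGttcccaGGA
In Col1a1 and Col3a1 the first codon of each triplet is a glycine codon, and Col3a1 has 1 more within a triplet, whereas in Col4a1 and Col4a4 the spacing breaks, with 2 codons outside the repeat. Over the whole translated chain, the longest unbroken run of glycine triplets was 338 in Col1a1, 339 in Col1a2 and 344 in Col3a1. The type IV chains held 23 to 27 separate runs of 3 or more triplets, and their longest runs were 39 (Col4a3) to 66 (Col4a2) triplets. Col24a1 and Col27a1, classed as fibrillar, had shorter longest runs of 216 and 217 triplets.

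The 250 bases before the start of Col3a1 (chr1:45311288-45311537, plus strand) and Col4a6 (chrX:141474077-141474326, minus strand) are shown from RefSeq (GRCm38.p6) as the promoters of a fibrillar gene whose 12-week ovaries all lay below its E18.5 ovaries and of a type IV gene whose Natural and IVF ovaries separated at 39 weeks. Capitals mark the TATA box letters TATAAA, the CCAAT box and the GC box letters GGGCGG, on either strand.
Col3a1 promoter: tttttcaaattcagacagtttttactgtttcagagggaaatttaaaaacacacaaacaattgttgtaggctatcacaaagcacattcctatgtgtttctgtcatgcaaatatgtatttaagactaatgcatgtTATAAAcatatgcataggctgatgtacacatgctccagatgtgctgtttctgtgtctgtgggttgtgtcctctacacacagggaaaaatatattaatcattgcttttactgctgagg
Col4a6 promoter: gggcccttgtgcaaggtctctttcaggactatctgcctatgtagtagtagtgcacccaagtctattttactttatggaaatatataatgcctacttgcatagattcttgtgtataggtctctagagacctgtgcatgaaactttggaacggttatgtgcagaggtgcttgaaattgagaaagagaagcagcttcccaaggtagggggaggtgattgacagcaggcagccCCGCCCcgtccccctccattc
The Col3a1 window held 1 TATAAA and the Col4a6 window 1 GC box (GGGCGG read on the other strand). Of 32851 RefSeq promoters of this length, 12.4% held TATAAA, 33.9% held CCAAT and 32.7% held GGGCGG, and of the 38 promoter entries that matched 35 of the 44 collagen genes, 13.2%, 34.2% and 57.9% did. Such matches describe letters and not sites of binding.

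Total counts were 6995713 to 14830788 per E18.5 ovary, 2839022 to 43363799 per 12-week ovary and 18079970 to 38751638 per 39-week ovary. They were 4364495 to 8675189 in PGCs, 839781 to 10879166 in 12-week oocytes, 2820748 to 31126357 in 39-week oocytes and 2532824 to 6345249 in cumulus cells. The 12-week IVF ovary of replicate 4 was the shallowest ovary library. Levels are given as CPM, counts per 1000000 counts of the library, and CPM per kilobase of coding sequence is used only where it is named. Class sums, shares and the ratio of fibrillar to basement membrane genes use plain CPM, not corrected for length. The summed level of the oocyte markers Zp3, Gdf9, Ooep and Zp2 had medians of 17717 and 20449 CPM in Natural and IVF oocytes of 12 weeks and of 17052 and 24939 CPM at 39 weeks. However, 4 of 36 and 6 of 40 oocytes of 12 weeks and 2 of 9 Natural oocytes of 39 weeks lay far below their group's median, from 157 up to 1277 CPM, where whole 12-week ovaries held 81.5 to 261 CPM, and every other oocyte had at least 11538 CPM. The germ cell markers Ddx4, Dazl, Dppa3 and Pou5f1 summed to 2459.6 to 5916 CPM in PGCs. Markers of other tissue differed between the ovaries. The summed level of the oviduct and epithelium markers Ovgp1, Foxj1, Epcam, Pax8 and Wfdc2 was 2974 to 7060.2 CPM in 12-week Natural and 8.32 to 2927 CPM in 12-week IVF ovaries, 15.4 to 149.8 CPM in 39-week Natural ovaries, and 7332 CPM in the 39-week IVF ovary of replicate 1 against 15.7 to 48.0 CPM in the other 4.

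Collagens made up a larger share of the counts in fetal than in adult ovaries. The 44 genes summed to 28807 to 40842 CPM in Natural and 30204 to 43712 CPM in IVF ovaries at E18.5. The adult sums at 12 weeks were 8268 to 10822 CPM in Natural and 6887 to 16153 CPM in IVF ovaries, and at 39 weeks 7251 to 13179.7 and 7779 to 11237 CPM. Every adult ovary was thus below every fetal ovary. Fibrillar collagens carried most of the difference: their sum was 19495 to 30622 CPM in Natural and 20988 to 30016 CPM in IVF ovaries at E18.5, and 4435 to 6418 and 3273 to 10220.3 CPM at 12 weeks. Type IV genes summed to 2092 to 2718 CPM in Natural and 2013 to 3277 CPM in IVF ovaries at E18.5, and to 1406 to 2483 and 1579.8 to 2816 CPM at 12 weeks, ranges that overlap between the ages.

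The ratio of summed fibrillar to summed basement membrane CPM was 10.8 ± 2.57 (SD, n = 4) in Natural and 10.8 ± 1.41 (SD, n = 6) in IVF ovaries at E18.5. It was 3.00 ± 0.609 (SD, n = 4) and 2.72 ± 0.671 (SD, n = 5) at 12 weeks, and 1.97 ± 0.519 (SD, n = 5) and 2.55 ± 0.435 (SD, n = 5) at 39 weeks. Per library it ran from 9.13 to 14.6 (Natural) and 9.16 to 12.7 (IVF) at E18.5, from 2.44 to 3.67 and 2.04 to 3.63 at 12 weeks, and from 1.36 to 2.67 and 1.97 to 3.14 at 39 weeks. Natural and IVF ovaries overlapped at each age, and the fetal ratios lay above every adult ratio. The ratio is a sum over chosen genes and was given no test. Each age came in a table of its own, so age and table cannot be told apart, and in a bulk sample fewer cells of a type cannot be told apart from less RNA per cell.

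**Figure D1:**
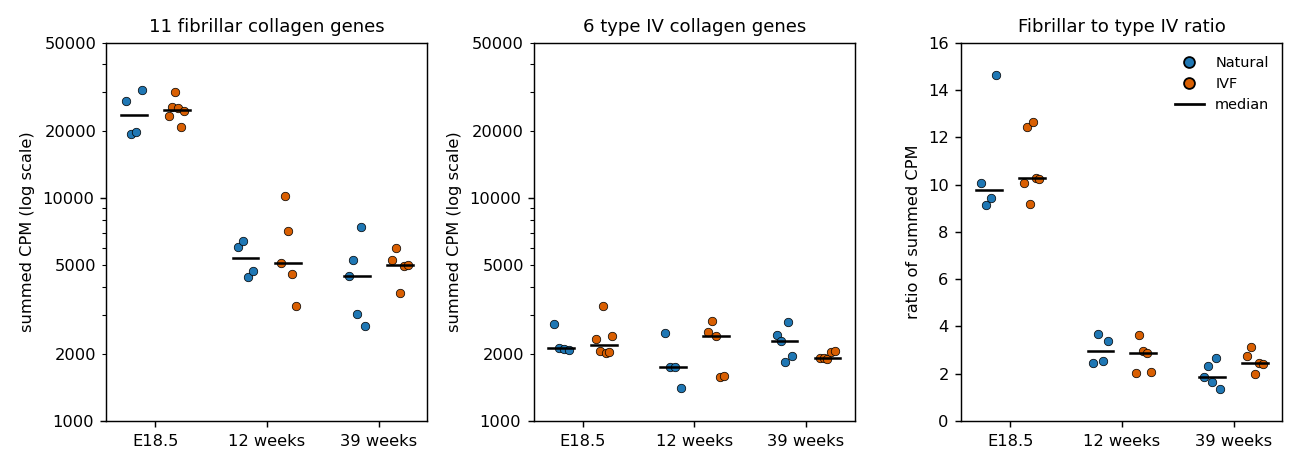
Summed CPM of the 11 fibrillar genes (left), of the 6 type IV genes (middle) and their ratio (right, linear axis, no unit), the sums on log axes, for each ovary library at E18.5, 12 and 39 weeks; points are libraries and lines are group medians. Fetal ovaries had ratios of 9.13 to 14.6, and adult ovaries 1.36 to 3.67.

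The type I and III chains, which form the main fibres of connective tissue, led the collagens in every ovary group. Per kilobase of coding sequence, mean levels at E18.5 in Natural ovaries were 2450.4 CPM for Col1a1, 1597 CPM for Col3a1 and 1112 CPM for Col1a2, followed by 689.5 and 640.2 CPM for the type VI chains Col6a2 and Col6a1 and 244 CPM for Col4a1. In 12-week Natural ovaries the same order per kilobase began with 406 CPM for Col1a1, 394 CPM for Col3a1 and 356 CPM for Col1a2, differences smaller than their spread over libraries, then 249.7 CPM for Col6a1 and 208 CPM for Col4a1. In 39-week Natural ovaries Col3a1 stood at 380.0 CPM per kilobase, Col1a2 at 297, Col1a1 at 294, Col6a1 at 289 and Col4a1 at 254, again with overlapping libraries. The minor type IV chains were far lower, at 17.1 CPM per kilobase for Col4a5, 13.3 for Col4a4, 10.9 for Col4a6 and 2.33 for Col4a3 in that group. Within libraries Col4a1 stood above Col4a2 per kilobase in all 29 ovaries, by ratios of 1.28 to 1.89. The ratio of Col1a1 to Col1a2 per kilobase was 1.75 to 2.46 at E18.5 and 0.723 to 1.30 at 12 and 39 weeks.

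At the other end, Col9a1 (a FACIT collagen of cartilage) was at 0 CPM in all E18.5 Natural ovaries and at most 0.666 CPM in any other, Col19a1 reached at most 0.875 CPM and Col10a1, the collagen of hypertrophic cartilage, at most 2.29 CPM. These 3 genes did not pass the filter on low counts in the ovary tests, and Col2a1, the main fibril chain of cartilage, also did not at 12 and 39 weeks taken alone. The tests at each age therefore cover 41, 40 and 40 of the 44 genes.

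**Figure D2:**
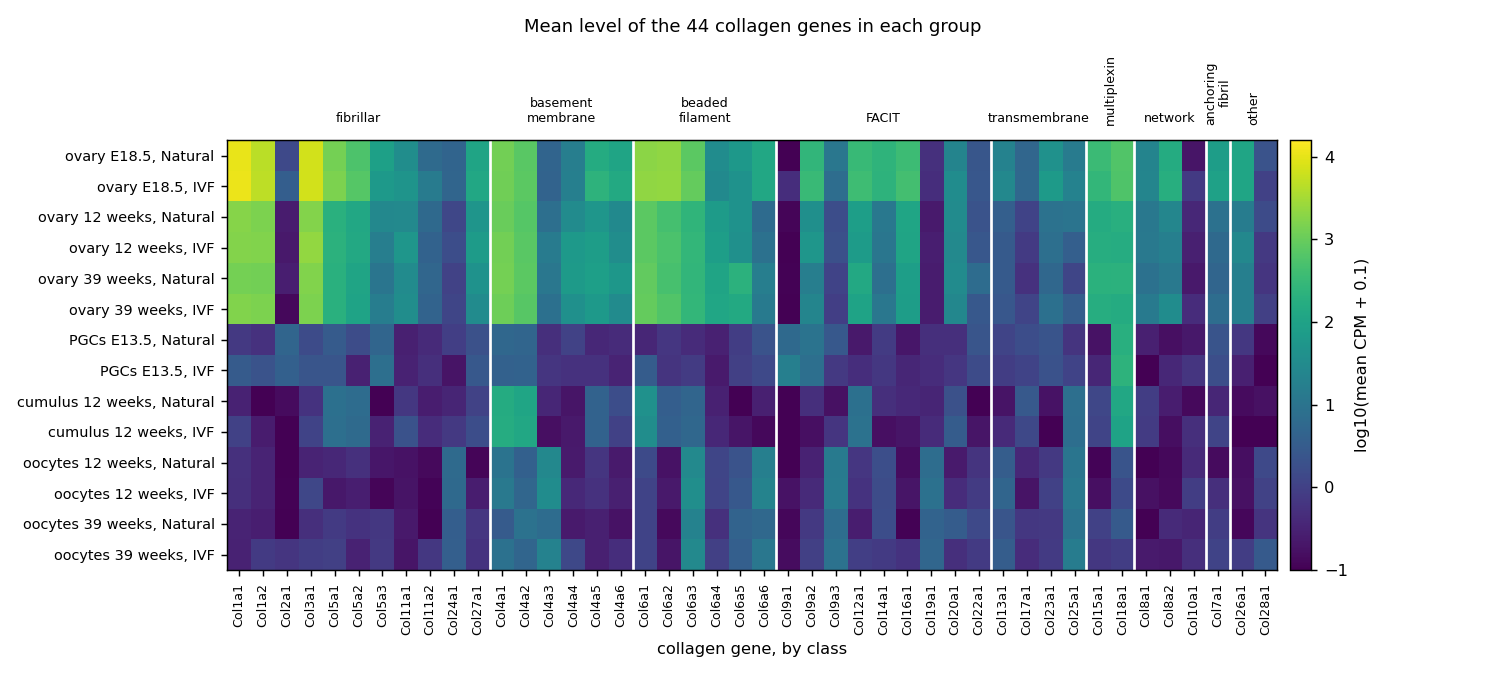
Mean level of all 44 collagen genes, grouped by class (columns), in the 14 groups of Natural and IVF samples (rows), as log10 of CPM plus 0.1. Most fibrillar and type VI genes are high in the ovary rows, with Col2a1, Col11a2 and Col24a1 among the low ones, and most are low in the PGC, oocyte and cumulus rows, where Col18a1, Col4a1, Col4a2, Col6a3 and a few others stand out.

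The first set of comparisons followed the ovary from E18.5 to 12 weeks, with all 29 ovaries in a single edgeR quasi-likelihood fit over 19724 genes and Benjamini-Hochberg adjustment. In Natural ovaries 28 of 41 collagens fell and 3 rose, and in IVF ovaries 31 fell and 3 rose. Among all genes tested, 49.7% were called in Natural ovaries (24.3% lower and 25.3% higher) and 59% in IVF ovaries (28.2% lower and 30.8% higher). The median collagen difference was -1.63 on the log2 scale in Natural and -1.76 in IVF ovaries, beside 0.01 over all genes in each. These contrasts have their own Natural and IVF libraries, and the E18.5 and 12-week libraries came in different tables.

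Of the 11 fibrillar genes, 9 fell in Natural and 10 in IVF ovaries, and none rose. Col1a1, the main chain of type I collagen, was at 10312, 8925, 9099 and 14389 CPM in the 4 Natural ovaries at E18.5 and at 2082, 2072, 1363 and 1561 CPM at 12 weeks. In IVF ovaries it was at 10072, 10609, 13869, 11286, 9137 and 10761 CPM at E18.5 and at 1372, 3091, 1993, 1311 and 765 CPM at 12 weeks. The highest adult library, 3091 CPM, was below the lowest fetal one, 8925 CPM. Col1a1 fell by 2.53 ± 0.32 (SE) on the log2 scale in Natural ovaries (edgeR adjusted p = 4.67e-07) and by 2.58 ± 0.28 in IVF ovaries (edgeR adjusted p = 1.83e-08). Its partner Col1a2 fell by 1.59 ± 0.26 in Natural (edgeR adjusted p = 1.32e-05) and by 1.45 ± 0.22 in IVF ovaries (edgeR adjusted p = 3.64e-06).

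Col3a1, the chain of type III collagen, was at 9077, 5309.9, 5514 and 8163 CPM in Natural ovaries at E18.5 and at 1938, 2141, 1487 and 1359 CPM at 12 weeks. In IVF ovaries its levels were 6735, 7338, 7358, 7117, 6052 and 6806 CPM at E18.5 and 2114, 3898, 2694, 1361 and 1132 CPM at 12 weeks. The ages did not overlap, and Col3a1 fell by 1.97 ± 0.33 (SE) in Natural (edgeR adjusted p = 1.83e-05) and fell by 1.51 ± 0.28 in IVF ovaries (edgeR adjusted p = 4.53e-05). Col5a1, Col5a2 and Col5a3, the type V chains that set fibril width, fell in both groups, as did Col24a1 and Col27a1. Col2a1 was at 0.748 to 2.39 CPM in Natural and 2.49 to 6.58 CPM in IVF ovaries at E18.5 and at most 0.276 CPM at 12 weeks, and it fell by 3.01 ± 0.82 in Natural and fell by 4.40 ± 0.79 in IVF ovaries. Of the type XI chains, Col11a1 differed by -0.28 ± 0.36 in Natural and 0.18 ± 0.31 in IVF ovaries and passed in neither. Col11a2 differed by 0.05 ± 0.35 in Natural ovaries and fell by 1.68 ± 0.31 in IVF ovaries (edgeR adjusted p = 5.06e-05), but the difference between these age changes, -1.73 ± 0.46, did not pass (edgeR adjusted p = 0.0985).

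The type IV genes split by chain. The widespread chains did not pass: Col4a1 differed by -0.18 ± 0.20 (SE) in Natural (edgeR adjusted p = 0.485) and by 0.20 ± 0.17 in IVF ovaries (edgeR adjusted p = 0.33), and Col4a2 by -0.09 ± 0.21 and 0.04 ± 0.18. Col4a1 was at 1478, 1138, 1119 and 1156 CPM in Natural ovaries at E18.5 and at 1428, 967, 1018 and 756 CPM at 12 weeks. Its IVF levels were 1180.2, 992, 1576, 956, 1038 and 1256 CPM at E18.5 and 1465, 1623, 1370.4, 846 and 869.6 CPM at 12 weeks, so the ages overlapped in both groups. Col4a2 was at 799.6, 742, 722 and 748 CPM in Natural ovaries at E18.5 and at 954, 641, 607 and 523 CPM at 12 weeks, and at 645 to 1261 and 513 to 1025 CPM in IVF ovaries.

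Col4a5 and Col4a6, the X-linked pair, fell in both groups. Col4a5 was at 244, 141, 153 and 100.4 CPM in Natural ovaries at E18.5 and at 48.7, 55.5, 61.2 and 49.1 CPM at 12 weeks, and it fell by 1.53 ± 0.23 (SE, edgeR adjusted p = 4.68e-06). IVF levels were 224, 240.5, 249.7, 233, 203 and 201 CPM at E18.5 and 92.8, 78.2, 89.3, 71.2 and 68.3 CPM at 12 weeks, and the gene fell by 1.37 ± 0.20 (edgeR adjusted p = 1.59e-06). At E18.5 Col4a6 was at 73.1 to 160.4 CPM in Natural and 123 to 166 CPM in IVF ovaries, which compares with 22.7 to 37.2 and 27.5 to 41.3 CPM at 12 weeks, and it fell by 1.80 ± 0.24 in Natural and fell by 1.95 ± 0.21 in IVF ovaries.

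Col4a3 and Col4a4, the pair that with Col4a5 builds the specialised basement membrane of the kidney glomerulus, stood higher at 12 weeks. Col4a4 was at 28.7, 16.3, 10.0 and 12.5 CPM in Natural ovaries at E18.5 and at 18.48, 39.3, 25.2 and 44.9 CPM at 12 weeks, which overlap in part. In IVF ovaries it was at 21.5, 15.0, 19.2, 14.8, 16.2 and 20.0 CPM at E18.5 and at 63.3, 41.4, 84.3, 51.1 and 91.6 CPM at 12 weeks, with no overlap. Col4a4 rose by 0.97 ± 0.36 (SE) in Natural (edgeR adjusted p = 0.0273) and by 2.03 ± 0.31 in IVF ovaries (edgeR adjusted p = 3.67e-06). The Natural call passed in 24 of 29 fits that left out 1 ovary and was lost without E18.5 Natural replicate 2, 3 or 4 or 12-week Natural replicate 2 or 4, the last with 0.72 (edgeR adjusted p = 0.123). It was also lost with only the 2 groups of the contrast in the fit, at 0.91 (edgeR adjusted p = 0.0653). Col4a3 differed by 0.81 ± 0.35 in Natural ovaries (edgeR adjusted p = 0.0572; 1.31 and 0.00492 with the level of oviduct markers, given above, as a covariate, an alternative chosen after seeing the data) and rose by 1.80 ± 0.31 in IVF ovaries (edgeR adjusted p = 1.6e-05). The difference between the Natural and IVF changes did not pass for either gene: it was 1.06 ± 0.47 for Col4a4 (edgeR adjusted p = 0.313) and 0.98 ± 0.46 for Col4a3 (edgeR adjusted p = 0.344).

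In Natural ovaries the largest falls were those of Col6a6 and Col14a1, outside both classes, and in IVF ovaries that of Col2a1 came first. Col6a6, a type VI chain, was at 239, 88.4, 129 and 76.5 CPM in Natural ovaries at E18.5 and at 4.35, 5.84, 7.15 and 8.73 CPM at 12 weeks, and fell by 4.32 ± 0.37 (SE, edgeR adjusted p = 7.54e-10). Col14a1, a FACIT collagen, was at 364, 160.1, 162 and 269.8 CPM and then at 9.98, 16.7, 12.3 and 8.53 CPM, and fell by 4.29 ± 0.48 (edgeR adjusted p = 6.35e-08). In IVF ovaries Col14a1 fell by 4.28 ± 0.43, Col6a6 fell by 3.80 ± 0.33 and Col7a1, the anchoring fibril chain of epithelia, fell by 3.80 ± 0.46. Col7a1 was at 33.6 to 127 CPM in Natural and 57.9 to 139 CPM in IVF ovaries at E18.5, and at 6.19 to 11.6 and 1.06 to 12.5 CPM at 12 weeks. Col26a1 fell by 2.88 ± 0.35 and Col9a3 fell by 2.75 ± 0.40 in Natural ovaries, and Col8a2 fell by 3.30 ± 0.51 and Col13a1 fell by 3.09 ± 0.25 in IVF ovaries. Of the type VI genes, Col6a1, Col6a2, Col6a3 and Col6a6 fell and Col6a4 rose in both groups, by 1.18 ± 0.40 in Natural (edgeR adjusted p = 0.0163) and 1.58 ± 0.34 in IVF ovaries. In Natural ovaries the Col6a4 call was lost without 12-week replicate 4, at 0.76 (edgeR adjusted p = 0.13), and without E18.5 replicate 4, at 1.00 (edgeR adjusted p = 0.055). Col20a1 rose in Natural ovaries only by its own test, by 0.60 ± 0.21, and differed by -0.10 ± 0.18 in IVF ovaries, and the difference between the groups, -0.70 ± 0.28, did not pass (edgeR adjusted p = 0.258). The Natural Col20a1 call was lost without replicate 1 of either age (0.49 and 0.49), with only the 2 groups in the fit (0.53) and with the oviduct marker covariate (0.43).

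**Figure D3:**
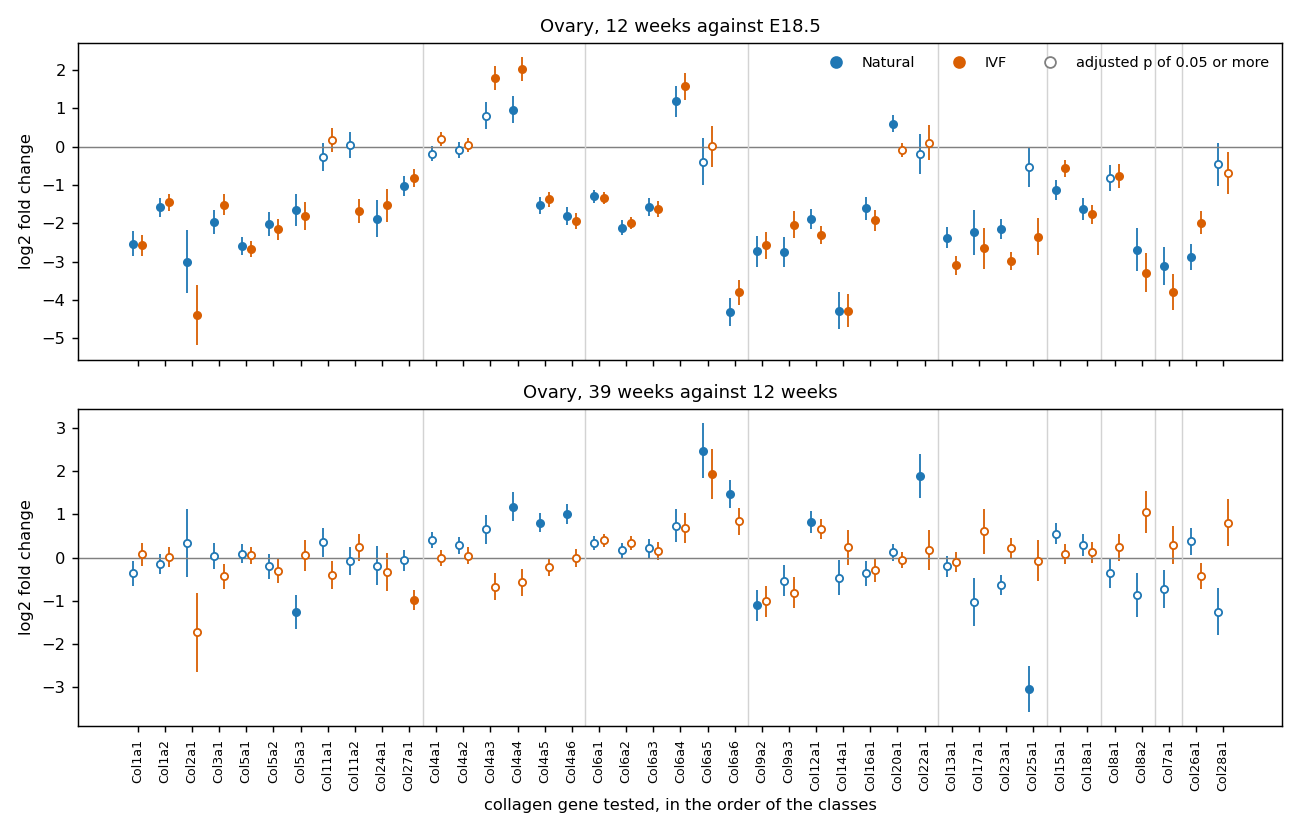
Log2 fold change with SE of the 41 tested collagens from E18.5 to 12 weeks (top) and from 12 to 39 weeks (bottom) in Natural (blue) and IVF (orange) ovaries; filled points have an edgeR adjusted p below 0.05. In the top panel 28 Natural and 31 IVF points are filled below 0 and 3 of each above, and in the bottom panel 10 Natural and 2 IVF points are filled.

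Genes that serve collagens moved in both directions over the same interval. Of all genes tested, 49.7% were called in Natural ovaries (24.3% lower, 25.3% higher) and 59% in IVF ovaries (28.2% lower, 30.8% higher). Of 10 partners of fibrils, 7 fell and none rose in Natural ovaries, and 6 fell and 2 rose in IVF ovaries; elastin (Eln) fell by 3.84 in Natural and fell by 3.55 in IVF ovaries. Of 16 laminins and other basement membrane partners, 10 fell and 2 rose in Natural and 11 fell and 2 rose in IVF ovaries. Lamc3, a laminin gamma chain, rose by 2.76 in Natural and 2.97 in IVF ovaries, whereas Nid2 (nidogen) fell by 2.62 in Natural and Agrn (agrin) by 2.49 in IVF ovaries. Of 21 genes for collagen folding and modification, 8 fell and 6 rose in Natural and 4 fell and 8 rose in IVF ovaries. Propeptide processing enzymes were called 2 lower and 2 higher of 8 in Natural and 3 lower and 2 higher in IVF ovaries, and receptors 2 lower and 2 higher of 9, and 3 lower and 3 higher.

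From 12 to 39 weeks fewer collagens changed. In Natural ovaries 7 of 41 rose and 3 fell, beside 21.6% of all genes called (10% higher and 11.6% lower). In IVF ovaries 1 rose and 1 fell, beside 6.19% of all genes (4.23% higher and 1.96% lower). The share of the collagens called is thus near the background in both groups. The median collagen difference was 0.09 in Natural and 0.05 in IVF ovaries.

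Col25a1, a transmembrane collagen, fell most. It was at 9.53, 4.47, 19.3 and 6.12 CPM in Natural ovaries at 12 weeks and at 1.44, 1.04, 0.664, 1.19 and 1.14 CPM at 39 weeks, with no overlap, and fell by 3.04 ± 0.53 (SE, edgeR adjusted p = 0.000465). The oviduct and epithelium markers were at 2974 to 7060.2 CPM in the 12-week and 15.4 to 149.8 CPM in the 39-week Natural ovaries. With the log2 of that marker level as a covariate, an alternative chosen after seeing the data, the Col25a1 difference was -1.18 (edgeR adjusted p = 0.213). The marker ranges of the ages do not overlap, so marker level and age cannot be told apart in Natural ovaries. The part of the markers was not tested.

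Of the minor type IV chains, Col4a6, Col4a5 and Col4a4 rose in Natural ovaries and Col4a3 did not pass. Col4a6 was at 27.5, 37.2, 31.9 and 22.7 CPM at 12 weeks and at 65.4, 49.6, 48.2, 67.2 and 45.8 CPM at 39 weeks, with no overlap, and rose by 1.01 ± 0.22 (SE, edgeR adjusted p = 0.00292). Col4a5 was at 48.7 to 61.2 CPM and then at 75.4, 94.8, 68.4, 110.1 and 84.5 CPM, and rose by 0.80 ± 0.22 (edgeR adjusted p = 0.00972). Col4a4 was at 18.48 to 44.9 CPM and then at 42.4, 69.3, 58.8, 85.6 and 79.5 CPM, and rose by 1.18 ± 0.34 (edgeR adjusted p = 0.0148). The Col4a4 call was lost without 12-week Natural replicate 1 or 3, and its fold change was 0.98 to 1.43 over the ovaries left out in turn. With the oviduct marker level as a covariate Col4a6 kept its call, at 1.15 (edgeR adjusted p = 0.0387), but Col4a5 was 0.53 (edgeR adjusted p = 0.378) and Col4a4 was 0.0043 (edgeR adjusted p = 0.999). As with Col25a1, marker level and age cannot be told apart here. Col4a3 differed by 0.65 (edgeR adjusted p = 0.166) and Col4a1 by 0.40 ± 0.20 (edgeR adjusted p = 0.142).

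In IVF ovaries none of the type IV genes passed over this interval. Col4a6 differed by -0.01, Col4a5 by -0.23, Col4a4 by -0.57 ± 0.31 and Col4a3 by -0.67 ± 0.31. With the oviduct marker level as a covariate the last pair passed, Col4a4 at -1.10 (edgeR adjusted p = 0.0174) and Col4a3 at -1.03 (edgeR adjusted p = 0.0345). The IVF ovary with 7332 CPM of these markers was at 39 weeks, and the 5 IVF ovaries at 12 weeks held 8.32 to 2927 CPM. The part of the markers was not tested.

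Other Natural changes concerned type VI and fibril-associated chains. Col6a5 was at 46.0, 53.0, 63.3 and 14.9 CPM at 12 weeks and at 364, 172, 244, 55.9 and 276 CPM at 39 weeks, and rose by 2.48 ± 0.63 (SE, edgeR adjusted p = 0.00715). Col6a6 was at 4.35 to 8.73 CPM and then at 14.4, 14.6, 13.1, 17.3 and 23.7 CPM, and rose by 1.47 ± 0.33 (edgeR adjusted p = 0.00295). Col22a1, a FACIT collagen of tissue junctions, was at 2.24, 3.83, 1.24 and 0.669 CPM and then at 15.4, 5.53, 1.83, 7.91 and 3.32 CPM, which overlap, and rose by 1.89 ± 0.51 (edgeR adjusted p = 0.0103). Col5a3 fell by 1.26 ± 0.38, a call lost without 12-week Natural replicate 4 or 39-week Natural replicate 5, where it was -0.97 and -1.10. Col9a2 fell by 1.11 ± 0.37 and Col12a1 rose by 0.83 ± 0.25, with edgeR adjusted p = 0.0314 and 0.0185. The Col9a2 call was lost without 12-week Natural replicate 1, 2 or 4 or 39-week Natural replicate 1, 3 or 5 (-1.12 to -0.94), and the Col12a1 call without 12-week Natural replicate 4 (0.65). With the oviduct marker level as a covariate Col6a5 was 2.36 (edgeR adjusted p = 0.206), Col6a6 1.18 (edgeR adjusted p = 0.166), Col12a1 1.15 (edgeR adjusted p = 0.0605) and Col5a3 -1.27 (edgeR adjusted p = 0.219), so these 4 calls were lost, while those of Col22a1 and Col9a2 were kept. Marker level and age cannot be told apart in these ovaries either. With only the 2 groups of the contrast in the fit Col22a1 was lost, at 1.91 (edgeR adjusted p = 0.0542).

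In IVF ovaries Col6a5 was at 11.0, 61.9, 18.3, 52.8 and 62.6 CPM at 12 weeks and at 21.4, 182, 163, 279.6 and 66.9 CPM at 39 weeks, which overlap, and rose by 1.94 ± 0.57 (SE, edgeR adjusted p = 0.0424). It passed in 22 of 29 fits that left out 1 ovary, with fold changes of 1.52 to 2.21, and with the oviduct marker covariate it was 1.87 and lost (edgeR adjusted p = 0.124). Col27a1, a fibrillar chain, was at 85.8, 58.0, 64.7, 65.9 and 74.9 CPM at 12 weeks and at 15.2, 31.8, 30.0, 36.8 and 48.4 CPM at 39 weeks, with no overlap, and fell by 0.98 ± 0.24 (edgeR adjusted p = 0.0154). It kept its call without each of the 29 ovaries in turn. With only the 2 groups of this contrast in the fit neither gene was called. Of the other genes that serve collagens, 3 of 16 basement membrane partners rose in IVF ovaries, perlecan (Hspg2) by 0.83 and Lamb2 by 0.56 among them, and 6 rose and 3 fell in Natural ovaries, with the laminin chains Lama3 and Lamb3 at -1.72 and -1.69 among them. Among 10 fibril partners 1 rose and 3 fell in Natural and 1 fell in IVF ovaries. Folding genes gave 1 fall of 21 in Natural and 1 rise in IVF ovaries, and Tll1, a propeptide processing protease, fell by 1.84 in Natural ovaries. Of all genes tested over this interval, 21.6% were called in Natural (10% higher, 11.6% lower) and 6.19% in IVF ovaries (4.23% higher, 1.96% lower).

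The comparison of IVF with Natural ovaries was made within each table. At E18.5, 1 of 41 collagens was called, beside 5.43% of 16415 genes, and 8 had an unadjusted p below 0.05, as did 3960 genes in all (24.1%). Col11a2, a type XI chain of thin fibrils, was at 2.27, 8.23, 8.28 and 5.53 CPM in Natural and at 14.3, 12.1, 19.7, 10.3, 13.6 and 15.9 CPM in IVF ovaries. Every IVF ovary was above every Natural ovary, and the difference was 1.20 ± 0.32 on the log2 scale (SE, edgeR adjusted p = 0.044). The call was kept without Natural replicate 1 or 3 and lost without Natural replicate 2 or 4 or any IVF ovary, and over all 10 ovaries left out in turn the fold change was 0.92 to 1.42. Without Natural replicate 1, 6 collagens passed, and without Natural replicate 3, 2 did. DESeq2 called 4 members, Col11a2, Col20a1, Col23a1 and Col2a1, beside 6.7% of the 27890 genes with counts.

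Col11a2, Col11a1 and Col2a1 were the 3 collagens whose Natural and IVF ranges did not overlap at E18.5, 3 of 41 beside 8.27% of all genes, a share near the background. Col11a1 was at 42.4, 33.3, 40.8 and 23.6 CPM in Natural and at 48.4, 61.4, 50.6, 45.4, 47.0 and 44.1 CPM in IVF ovaries, a difference of 0.45 ± 0.17 (edgeR adjusted p = 0.131). Col2a1 was at 0.974, 0.748, 2.39 and 1.21 CPM and at 3.16, 3.16, 2.92, 2.49, 6.58 and 2.51 CPM, a difference of 1.30 ± 0.42 (edgeR adjusted p = 0.0864). Col9a3, a further chain known from cartilage, lay the other way at -0.72 ± 0.27 (edgeR adjusted p = 0.124). Of the cartilage markers, aggrecan (Acan) was at 0.736 to 1.46 CPM in Natural and 2.29 to 4.94 CPM in IVF ovaries and was 1.60 higher (edgeR adjusted p = 0.0196), and Matn1 was at most 0.286 CPM. Of the 5 markers listed, the 4 found among the gene names summed to 1.84 to 5.26 and 3.50 to 5.34 CPM, which overlap. The part of these markers in the result was not tested. The summed smooth muscle markers were at 505 to 638 CPM in Natural and 313 to 396 CPM in IVF ovaries. Ovarian surface and mesothelium markers were at 470 to 734 and 293 to 429 CPM, and luteal markers at 7.55 to 14.6 and 16.4 to 25.9 CPM. None of these overlap. Erythroid markers reached at most 641 and 1578 CPM, and oocyte markers were at 44.2 to 288 and 3.06 to 71.8 CPM. The part of all these markers was not tested either. One passage of the study's methods gives the day of delivery of IVF litters as later than that of Natural litters, so stage and conception may not be told apart at this age.

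The main fibrillar and type IV chains were close between the groups at E18.5. Col1a1 differed by -0.0020 (edgeR adjusted p = 0.995), and its ranges of 8925 to 14389 CPM in Natural and 9137 to 13869 CPM in IVF ovaries overlap nearly in full. Col4a5 was at 100.4 to 244 CPM and 201 to 249.7 CPM, a difference of 0.45 ± 0.20 (edgeR adjusted p = 0.179), and Col4a6 differed by 0.41 ± 0.19 (edgeR adjusted p = 0.218). Col23a1, a transmembrane collagen, was at 36.6 to 52.4 CPM and 47.8 to 91.0 CPM, a difference of 0.62 ± 0.19 (edgeR adjusted p = 0.0788). The median over the 41 collagens was 0.04, beside 0.00 over all genes. Of the genes that serve collagens, Bgn (biglycan), which binds fibrils, was lower in IVF ovaries by a log2 difference of -0.66 (edgeR adjusted p = 0.0264) and Crtap, which helps to hydroxylate collagen prolines, by -0.45 (edgeR adjusted p = 0.0452). Neither call was recomputed with libraries left out.

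At 12 weeks no collagen was called of 40 tested, beside 0.00567% of 17628 genes, with edgeR. The count at an unadjusted p below 0.05 was 10, beside 2544 genes in all (14.4%), and DESeq2 called 4, Col11a1, Col4a3, Col4a4 and Col4a5, beside 2.25% of 28285 genes with counts. All 6 type IV genes stood higher in IVF ovaries, with a median of 0.40 on the log2 scale beside 0.01 over all genes. Col4a5 was at 48.7, 55.5, 61.2 and 49.1 CPM in Natural and at 92.8, 78.2, 89.3, 71.2 and 68.3 CPM in IVF ovaries, a difference of 0.57 ± 0.12 (SE, edgeR adjusted p = 0.152). Col4a3 was at 6.17, 7.81, 6.98 and 11.10 CPM and at 11.12, 11.6, 17.6, 13.7 and 17.9 CPM, a difference of 0.83 ± 0.24 (edgeR adjusted p = 0.196). Neither gene's groups overlapped, which also held for Col27a1 and for 5.69% of all genes. Col4a4 overlapped, with 18.48 to 44.9 CPM and 41.4 to 91.6 CPM, and differed by 1.05 ± 0.32 (edgeR adjusted p = 0.212).

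The chains of higher level were closer at 12 weeks. Col4a1 differed by 0.24 (edgeR adjusted p = 0.676) and Col4a2 by 0.13 (edgeR adjusted p = 0.832), while Col1a1 differed by -0.08 (edgeR adjusted p = 0.944), Col1a2 by 0.12 and Col3a1 by 0.35. Col27a1 was at 45.2 to 55.5 CPM in Natural and 58.0 to 85.8 CPM in IVF ovaries and differed by 0.47 ± 0.14 (edgeR adjusted p = 0.202). Col11a1 was at 35.2, 27.8, 23.3 and 25.6 CPM and at 28.6, 54.9, 56.0, 79.3 and 45.7 CPM, a difference of 0.88 ± 0.24 (edgeR adjusted p = 0.176). Beside these values, the oviduct and epithelium markers did not overlap between the groups, at 2974 to 7060.2 CPM in Natural and 8.32 to 2927 CPM in IVF ovaries. Ovarian surface and mesothelium markers (316 to 335 and 70.2 to 198 CPM) and cumulus markers (10.9 to 19.2 and 3.52 to 10.4 CPM) did not overlap either. With the oviduct marker level as a covariate Col4a5 was 0.54, Col4a3 0.55 and Col4a4 0.70, and none was called. That covariate cannot part marker level from conception here, and the part of the markers was not tested. Over the 9 libraries left out in turn, the shallow IVF replicate 4 included, Col4a5 was 0.47 to 0.63, Col4a3 0.70 to 1.01 and Col4a4 0.84 to 1.24, and no collagen was called. Of the genes that serve collagens none was called, and the smallest p values were those of Lamb3, at -1.74, and Ddr1, a collagen receptor of epithelia, at -0.84 (edgeR adjusted p = 0.152 for both).

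At 39 weeks the order was the reverse for the type IV genes, and again no collagen was called of 40 tested, beside 0.262% of 17186 genes, with edgeR. The count at an unadjusted p below 0.05 was 7, beside 3303 genes in all (19.2%), and DESeq2 called 1, Col4a6, beside 3.94% of 28781 genes with counts. All 6 type IV genes stood lower in IVF ovaries, with a median of -0.48 beside 0.03 over all genes. Col4a6 was at 65.4, 49.6, 48.2, 67.2 and 45.8 CPM in Natural and at 36.1, 24.2, 21.8, 44.3 and 32.0 CPM in IVF ovaries, a difference of -0.79 ± 0.21 (SE, edgeR adjusted p = 0.107). It was the collagen whose groups did not overlap, beside 5.16% of all genes, and over the 10 libraries left out in turn it was -0.94 to -0.68. Col4a5 was at 68.4 to 110.1 CPM and 38.8 to 86.1 CPM, a difference of -0.46 ± 0.19 (edgeR adjusted p = 0.228), and Col4a4 at 42.4 to 85.6 CPM and 14.7 to 60.3 CPM, a difference of -0.71 ± 0.31 (edgeR adjusted p = 0.247). Col4a1 differed by -0.18 (edgeR adjusted p = 0.433) and Col4a2 by -0.10.

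Fibrillar genes showed no shared direction at 39 weeks. Col1a1 was at 1291, 1353, 825, 2213 and 729.9 CPM in Natural and at 1968, 1914, 1150.2, 1526 and 1570.3 CPM in IVF ovaries, a difference of 0.37 (edgeR adjusted p = 0.474). Col3a1 was at 1689.6, 2156, 909.5, 2753 and 836 CPM and at 1544, 1837, 1274, 1294 and 1577 CPM, a difference of -0.12 (edgeR adjusted p = 0.846). Natural ovaries spanned the IVF range for Col3a1. Col25a1 was at 0.664 to 1.44 CPM in Natural and at 9.49, 2.4, 1.02, 2.36 and 1.09 CPM in IVF ovaries, a difference of 1.60 ± 0.61 (edgeR adjusted p = 0.207), and Col8a2, a network collagen, at 9.64 to 16.4 CPM and at 120.0, 13.4, 12.7, 9.1 and 12.0 CPM. The first IVF value of both genes is that of replicate 1, the library with 7332 CPM of oviduct and epithelium markers. Col22a1 differed by -1.39 ± 0.53 (edgeR adjusted p = 0.203) and Col20a1 by -0.37 ± 0.15 (edgeR adjusted p = 0.223). Of the genes that serve collagens none was called, and Lum (lumican), which binds fibrils, came nearest at -0.97 (edgeR adjusted p = 0.0676).

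**Figure D4:**
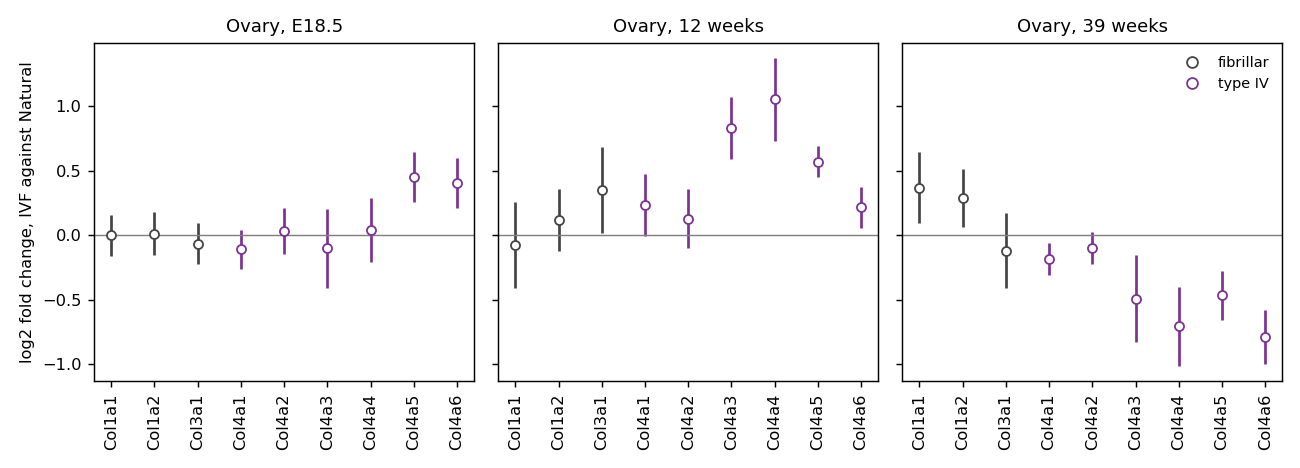
Log2 fold change of IVF against Natural ovaries with SE for Col1a1, Col1a2, Col3a1 and the 6 type IV genes at E18.5, 12 and 39 weeks. The type IV points lie above 0 at 12 weeks, with a median of 0.40, and below 0 at 39 weeks, with a median of -0.48, and none of the plotted points passed the threshold at its own age.

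The change of the IVF difference from 12 to 39 weeks was tested as an interaction over the 29 ovaries. It was called for 2 of 41 collagens, beside 2.71% of all genes, and 12 had an unadjusted p below 0.05, as did 3947 of 19724 genes (20%). The change was negative for all 6 type IV genes, with a median of -1.03. Col4a4 changed by -1.75 ± 0.46 (SE, edgeR adjusted p = 0.0408), from 1.05 at 12 weeks to -0.71 at 39 weeks. Col4a5 changed by -1.03 ± 0.29 (edgeR adjusted p = 0.0532), Col4a6 by -1.02 ± 0.30 (edgeR adjusted p = 0.0628) and Col4a3 by -1.32 ± 0.45 (edgeR adjusted p = 0.0938), none of which passed, and Col4a1 and Col4a2 by -0.42 and -0.24. DESeq2 called 6, namely Col25a1, Col8a2 and Col4a3 to Col4a6, beside 4.93% of 31079 genes with counts.

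Summed over Col4a3, Col4a4, Col4a5 and Col4a6, the level was 101 to 140 CPM in Natural and 168 to 232 CPM in IVF ovaries at 12 weeks, and 183 to 279 CPM and 93.5 to 186 CPM at 39 weeks. They made up 4.06% to 9.09% of the type IV CPM in Natural and 5.96% to 12.9% in IVF ovaries at 12 weeks, and 7.80% to 11.6% and 4.89% to 9.14% at 39 weeks. The groups did not overlap in the sum at 12 weeks, overlapped at 39 weeks and overlapped in the share at both ages. Both are sums over chosen genes and were given no test.

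Col25a1 changed the other way, by 2.97 ± 0.71 (SE, edgeR adjusted p = 0.0315), from 4.47 to 19.3 CPM in Natural and 1.75 to 7.79 CPM in IVF ovaries at 12 weeks to 0.664 to 1.44 and 1.02 to 9.49 CPM at 39 weeks. Both interaction calls lay near the threshold, and both were lost with only the groups of the contrast in the fit. There Col4a4 was -1.76 (edgeR adjusted p = 0.0952) and Col25a1 was 3.02 (edgeR adjusted p = 0.0989). Col4a4 passed in 19 and Col25a1 in 21 of 29 fits that left out 1 ovary, with values of -1.98 to -1.54 and 2.06 to 3.46. Neither was called without 12-week Natural replicate 1 or 3, 12-week IVF replicate 1, 3 or 5, 39-week Natural replicate 4 or 5, or 39-week IVF replicate 1, and Col4a4 was also lost without 39-week Natural replicate 2 or 3. Without 12-week IVF replicate 4, the shallowest ovary, and 39-week IVF replicate 1 together, Col4a4 was -1.63 and just kept its call (edgeR adjusted p = 0.04998) and Col25a1 was 2.06 (edgeR adjusted p = 0.069). With the oviduct and epithelium marker level as a covariate Col4a4 was -1.11 (edgeR adjusted p = 0.303) and Col25a1 was 1.51 (edgeR adjusted p = 0.308). The part of these markers was not tested. Of the genes that serve collagens, Lama3 and Ddr1 changed by 2.49 (edgeR adjusted p = 0.0489) and 1.65 (edgeR adjusted p = 0.0389), the opposite sign to the type IV genes. Both calls lay near the threshold and were not recomputed with libraries left out or with the marker covariate. Granulosa markers summed to 1219 to 1917 CPM in Natural and 1544 to 4054 CPM in IVF ovaries at 12 weeks. At 39 weeks they summed to 619 to 1907 and 1230.4 to 3551 CPM. Luteal markers summed to 4134 to 9504 and 2854 to 11985 CPM at 12 weeks. At 39 weeks they summed to 6007 to 12505 and 995 to 8169 CPM. The part of both was not tested. The study took adult females for serum hormones at proestrus, and whether the sequenced ovaries came from these females is not stated.

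**Figure D5:**
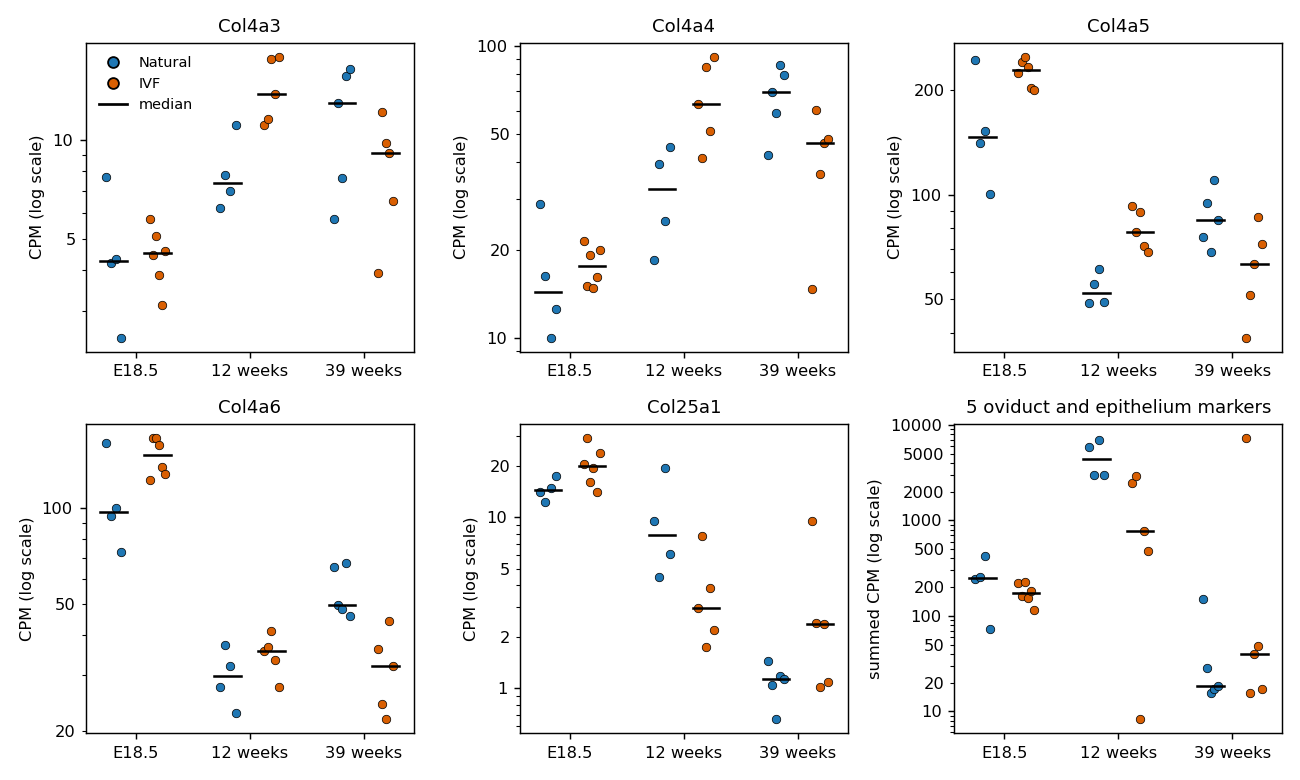
CPM on a log axis of Col4a3, Col4a4, Col4a5, Col4a6 and Col25a1 and the summed CPM of the 5 oviduct and epithelium markers in each ovary library; points are Natural and IVF libraries at E18.5, 12 and 39 weeks. Col4a5 is higher in all 12-week IVF than in all 12-week Natural ovaries, Col4a6 is lower in all 39-week IVF than in all 39-week Natural ovaries, and the marker panel shows 1 IVF ovary at 7332 CPM at 39 weeks.

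The change of the IVF difference from E18.5 to 12 weeks was called for none of 41 collagens with edgeR, beside 0.314% of all genes, with 8 at an unadjusted p below 0.05 beside 14% of all genes, and DESeq2 called 1, Col11a2, beside 1.04% of genes with counts. Besides Col11a2, the smallest p values were those of Col25a1, at -1.83 ± 0.70 (edgeR adjusted p = 0.235), Col23a1, at -0.84 ± 0.34 (edgeR adjusted p = 0.256), and Col20a1, at -0.70 ± 0.28 (edgeR adjusted p = 0.258). The tests at the 3 ages share ovaries with these interactions and are not independent of them.

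Germ cells and cumulus cells carried few collagens. In PGCs, collected as small pools from E13.5 gonads, 12 of 44 passed the filter, none was called with edgeR, beside 0% of 12763 genes, 1 had an unadjusted p below 0.05, and DESeq2 called none. Col18a1, a multiplexin of basement membranes, led with 199, 202, 189 and 187 CPM in Natural and 222, 215, 249, 191 and 251 CPM in IVF libraries. Col9a1 was at 3.42, 0.871, 8.29 and 10.5 CPM in Natural and at 17.4, 17.2, 29.4, 11.0 and 13.7 CPM in IVF libraries, which do not overlap, as for 0.642% of all genes, and differed by 1.54 ± 0.59 (SE, edgeR adjusted p = 1). Col1a1 was at 0, 2.49, 0 and 0 CPM and at 2.11, 0.362, 6.46, 3.71 and 2.6 CPM. Col5a3 was at 2.82 to 7.09 CPM and 4.99 to 11.2 CPM and Col6a6 at 1.83 to 2.32 CPM and 0.528 to 2.31 CPM, both with overlap. The second Natural library held 18.9 CPM of Col4a1 against 0 to 1.33 CPM in the other 3.

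In 12-week oocytes, 24 collagens passed the filter after counts were summed over the 5 sets of each group that the library names give. None was called with edgeR, beside 0.0277% of 14444 genes, none had an unadjusted p below 0.05, and DESeq2 called none. Without the 10 oocytes of low oocyte marker level, an alternative chosen after seeing the data, none was called either. Oocytes held mainly type VI and type IV chains, and the median of Col1a1, Col1a2 and Col3a1 was 0 CPM in both groups. Over the single oocytes, Col6a3 ran from 0 through a median of 28.9 to 48.7 CPM in Natural and from 7.35 through 36.6 to 64.1 CPM in IVF oocytes. Summed per set, it was at 29.6, 29.2, 30.6, 29.0 and 27.6 CPM in Natural and at 35.3, 41.8, 36.0, 38.8 and 33.2 CPM in IVF oocytes. The sets did not overlap, as for 1.79% of all genes, yet the difference was 0.21 ± 0.13 (SE, edgeR adjusted p = 0.827). Col4a3 had medians of 21.9 CPM in Natural and 21.0 CPM in IVF oocytes, and Col6a6 of 18.0 and 21.7 CPM. The smallest p values were those of Col23a1, at 1.46 ± 0.71, and Col3a1, at 1.90 ± 0.99 (edgeR adjusted p = 0.775 and 0.778).

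In 39-week oocytes, 12 collagens passed the filter. None was called with edgeR, beside 0.951% of 10940 genes, none had an unadjusted p below 0.05, and DESeq2 called none. None was called without the 2 Natural oocytes of low marker level. Here single oocytes were the units, and oocytes may share a female. Col6a3 ran from 6.54 through a median of 20.6 to 30.8 CPM in Natural and from 11.2 through 26.2 to 54.6 CPM in IVF oocytes. Col4a3 ran from 0 through 6.19 to 16.3 CPM and from 1.32 through 9.84 to 101 CPM, a difference of 1.38 ± 0.67 (SE, edgeR adjusted p = 0.461). Col28a1, Col4a1 and Col6a6 differed by 2.48 ± 1.38, 1.46 ± 0.82 and 0.92 ± 0.55. Of the genes that serve collagens, Lamc1 was called, at -1.57 (edgeR adjusted p = 0.0208).

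In 12-week cumulus cells, 13 collagens passed the filter. The library name of Natural replicate 5 has the form of a set of IVF oocytes, and it was kept in the group of its title. None was called with edgeR, beside 0.00973% of 10280 genes, none had an unadjusted p below 0.05, and DESeq2 called none. Without Natural replicate 5 none was called. The basement membrane chains led. Col4a1 was at 78.0, 80.0, 166, 288 and 183 CPM in Natural and at 328, 128, 138, 119 and 127 CPM in IVF libraries, and Col4a2 at 123, 147, 68.1, 139 and 89.7 CPM and at 156, 86.3, 109, 152 and 154 CPM. Col18a1 was at 120.1, 112, 65.7, 171 and 176 CPM and at 105, 158, 117, 66.9 and 81.0 CPM, a difference of -0.37 ± 0.23 (SE, edgeR adjusted p = 0.868). All 3 overlapped between the groups. Col17a1, a transmembrane collagen of epithelia, was at 0.891 to 6.03 CPM and 0 to 2.44 CPM and differed by -1.22 ± 0.66 (edgeR adjusted p = 0.848). Col1a1 reached at most 0.652 CPM in Natural and 1.58 CPM in IVF libraries, and the stromal markers Pdgfra, Dcn, Lum, Tcf21 and Nr2f2 summed to at most 9.97 CPM.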

How the data were processed

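Ovary RNA was sequenced from stranded mRNA libraries and PGC, oocyte and cumulus RNA from modified SMART-seq libraries without molecular identifiers. The authors deposited read counts per gene without normalization. The submitters' processing notes name mm10, Trimmomatic (0.32), STAR (2.3.0e) and featureCounts (1.5.0). Collagen classes, gene lists and markers were chosen with earlier results of these data known. Levels are CPM of the deposited counts, and total counts per library, given in the report, limit the precision for genes with few reads.

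Each comparison used edgeR (4.0.16, in R 4.3.3) with TMM normalization, the default filter on low counts, quasi-likelihood F tests over all genes kept, Benjamini-Hochberg adjustment and a threshold of 0.05. Age contrasts and interactions used 1 fit of the 29 ovaries. Counts of 12-week oocytes were summed per set in the library names, and the cumulus fit held the kind of library name as a covariate. Age came with the table. DESeq2 (1.42.0), size factors, filters, a replicate block, named groups only, omission of each library and a covariate of oviduct markers were alternatives, the last chosen after seeing the data, as was the omission of oocytes of low marker level. Where the marker ranges of the compared groups do not overlap, the covariate cannot part marker level from age or conception. Named genes were Col1a1, Col1a2, Col3a1, the type IV genes and, per comparison, up to 6 called members of largest fold change or, with none called, the 4 of smallest p. Others were added after their values were seen. Of the genes that serve collagens, up to 4 called genes of largest fold change were named, or with none called the 2 of smallest p. One gene that this rule names is not reported here. The lowest chi-square per degree of freedom between libraries of a group was 6.24, so no library was counted as a copy of another. The fits were run on simulated counts with the same dispersion for all genes and with changes only in genes of higher counts. That simulation does not cover the spread of these libraries or genes with few reads. Sequences came from GRCm38, with GENCODE M21, and from RefSeq, and figures were drawn with matplotlib (3.10.9). Of 151 samples, 8 were not analysed here: 4 of cumulus cells at 39 weeks, and 4 further records of 12-week cumulus cells.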

Additional observations from a re-analysis of the deposited data

Results flagged for a closer look

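In groups of 4 to 10 libraries, 15 of 108 group values held a library far from the rest by Dixon's test at 95%, a test that chance passes in about 1 of 20 groups. Many of these values are sums that share genes, so 1 library can be flagged several times. The flags are therefore not independent, and their share cannot be set against that rate. At E18.5 the Natural ovary of replicate 1 had 1478 CPM of Col4a1, 2277 CPM of Col4a1 and Col4a2 together and 2718 CPM of all type IV genes, and the Natural ovary of replicate 4 had a fibrillar to basement membrane ratio of 14.6. The E18.5 IVF ovary of replicate 3 had 1261 CPM of Col4a2, 2836 CPM of Col4a1 and Col4a2 together and 3277 CPM of all type IV genes. Among PGCs, the Natural library of replicate 2 stood apart with 355 CPM of all collagens, 52.1 CPM of fibrillar and 42.2 CPM of type IV genes. Among 39-week oocytes, the Natural oocyte of replicate 4 had 212 CPM of all collagens and 28.2 CPM of fibrillar genes, and the IVF oocyte of replicate 7 had 335 and 45.4 CPM. The IVF cumulus library of replicate 1 had 495 CPM of type IV genes.

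The effect of IVF differed between 39 and 12 weeks by the interaction test for 2 collagens, Col25a1 by 2.97 and Col4a4 by -1.75 on the log2 scale. Both calls lay near the threshold. They were lost with only the groups of the contrast in the fit, with the oviduct marker covariate and without several single ovaries.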

How the results depend on the processing

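Each of 141 collagen values was recomputed under the alternatives, 4274 times in all, and 4063 were classed as unchanged. For a fold change this means that direction and side of the threshold were kept. For a count of collagens called it means an equal or similar count, and for a ratio a shift smaller than the spread between libraries. Many of the 141 values were fold changes from E18.5 to 12 weeks, so the total says little on the IVF differences. The genes that serve collagens were not among these values. The number of collagens called moved as follows. DESeq2 called 4 against 1 at E18.5, 4 against 0 at 12 weeks, 1 against 0 at 39 weeks, 4 against 2 for IVF ovaries from 12 to 39 weeks, 6 against 2 for the change of the IVF difference from 12 to 39 weeks and 1 against 0 for that from E18.5 to 12 weeks. With no filter on low counts IVF ovaries gave 1 from 12 to 39 weeks. With only the groups of the contrast in the fit, that contrast gave 0 and the change of the IVF difference from 12 to 39 weeks 0. The latter gave 1 without 12-week IVF replicate 4 and 39-week IVF replicate 1. With the oviduct and epithelium marker level as a covariate, chosen after seeing the data, the counts were 2 at E18.5, 4 for Natural and 6 for IVF ovaries from 12 to 39 weeks, and 0 for the change of the IVF difference. Leaving out each library gave 0 to 6 at E18.5, 1 to 4 for IVF ovaries from 12 to 39 weeks and 0 to 4 for that change. The counts from E18.5 to 12 weeks stayed within 28 to 33 in Natural and 29 to 35 in IVF ovaries, and those in PGCs, oocytes and cumulus cells at 0.

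Small differences turned sign. Without the filter Col1a2 at E18.5 was -0.0044, and with the marker covariate -0.023, where Col4a3 was 0.056. Col4a2 in IVF ovaries from E18.5 to 12 weeks was -0.0136 with DESeq2 and with its size factors, -0.0187 with at least 10 counts in every library and -0.0035 with the covariate, which also turned Col4a3 in Natural ovaries (-0.23) and Col4a6 in IVF ovaries (0.035) from 12 to 39 weeks. Over libraries left out at E18.5, Col1a1 was -0.10 to 0.16, Col1a2 -0.11 to 0.12, Col3a1 -0.20 to 0.087, Col4a2 -0.15 to 0.088, Col4a3 -0.32 to 0.25 and Col4a4 -0.13 to 0.43. At 12 weeks Col1a1 was -0.39 to 0.085, Col1a2 -0.084 to 0.22 and Col4a2 -0.0024 to 0.30, and at 39 weeks Col3a1 was -0.28 to 0.10. In IVF ovaries Col4a2 was -0.083 to 0.22 from E18.5 to 12 weeks and Col4a6 -0.17 to 0.11 from 12 to 39 weeks. The causes were not tested, and no fibrillar to basement membrane ratio moved beyond the spread between libraries.

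Replicate numbers are shared between groups. The deviations of libraries with the same number correlated at -0.36 to 0.40 among ovaries, at -0.068 to 0.54 among PGCs and at -0.32 to 0.17 among cumulus cells. The numbers were not taken as pairs, and a replicate block was an alternative. With the replicate block the count was 0 against 1 at E18.5, where Col1a1 was 0.074, Col3a1 0.020 and Col4a3 0.075, and Col1a1 at 12 weeks was 0.022.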
